A study of Arabidopsis thaliana with 12 samples.

Results

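The jasmonate ZIM-domain (JAZ) genes encode the repressors at the centre of jasmonate signalling in plants. The transcripts of 10 of them were followed in wild type Columbia seedlings of Arabidopsis thaliana given warmth, mannitol or both. They were taken by locus identifier from a deposited table of 27655 genes. The members are JAZ1 (AT1G19180), JAZ2 (AT1G74950), JAZ3 (AT3G17860), JAZ5 (AT1G17380), JAZ6 (AT1G72450), JAZ7 (AT2G34600), JAZ8 (AT1G30135), JAZ9 (AT1G70700), JAZ10 (AT5G13220) and JAZ12 (AT5G20900). The RefSeq reference gives the JAZ name to all 10 identifiers.

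RNA was measured in whole seedlings, 3 libraries in each of 4 groups, 12 libraries in all. Every seedling had grown for 7 days at 21°C under 8 h of light and 16 h of dark. At 1 h after lights on, the seedlings stayed at 21°C or went to 27°C, in each case with mannitol or without it, and all were harvested 12 h later, in darkness. Mannitol, a sugar alcohol, makes water harder for roots to take up and is used as an osmotic treatment. The sources used here do not state its dose. The labels do not say whether replicates were grown or harvested apart, so p-values measure only the spread between these samples, which may be technical. Because all libraries share 1 time of day, a change of level and a shift of a daily rhythm cannot be told apart.

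Values are TPM, reads per gene length scaled to a fixed sum in each library. The steps in the TPM values gave back whole reads, from 13478365 in the shallowest library to 14573463 in the deepest. Differences are given as log2 differences of TPM + 1 with the standard error (SE) of limma's fit over 20005 tested genes, and a Benjamini-Hochberg adjusted p below 0.05 was taken as a call; TPM levels carry the standard deviation (SD, n = 3). The added 1 shrinks the log2 difference of genes close to 0 TPM. The 50 most abundant genes held from 19.5% of TPM in a 21°C library to 13.7% in a library of warmth with mannitol. The median gene shifted upward by 0.09 with warmth, 0.08 with mannitol at 21°C, 0.17 with mannitol at 27°C and 0.16 with warmth in the presence of mannitol. After median-of-ratios rescaling, which brings such medians close to 0 by construction, they were 0.00, -0.02, -0.01 and -0.00. Members' calls that end or appear under rescaling are given beside the result. Root and shoot markers were all present, each averaging at least 1 TPM over the 12 libraries. The summed level of 6 shoot markers went from 76621 to 78643 TPM at 21°C down to 40257 to 42063 TPM in warmth with mannitol, and that of 7 root markers from 2373 to 2523 TPM up to 4544 to 4919 TPM. PYK10, an abundant root beta-glucosidase, made up most of the root sum, with group means of 2364 and 4633 TPM, and PIN2, EXPA7, COBL9 and CASP1 were called in no comparison. CASP2 rose with warmth by 0.77 ± 0.13 (adjusted p = 2.21e-04), and NRT2.1 fell by 1.06 (SE 0.22, adjusted p = 0.00107). NRT2.1 was low in both groups, with means of 1.97 TPM at 21°C and 0.374 at 27°C. With mannitol at 21°C NRT2.1 rose by 2.52 ± 0.22 (adjusted p = 7.80e-07). RCA averaged 3645 TPM at 21°C and 3861 in warmth with mannitol, while every other shoot marker averaged less there. With warmth RCA rose by 0.44 ± 0.05 (adjusted p = 1.47e-05), RBCS3B rose by 0.18 ± 0.06 (adjusted p = 0.0186), and 3 of the 6 fell. In whole seedlings, fewer cells of a type and less RNA per cell cannot be told apart, and the part of tissue make-up in the results below was not tested.

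JAZ proteins bind the MYC transcription factors and hold their target genes off by recruiting the adaptor NINJA and the corepressor TOPLESS (TPL). When jasmonate rises, its isoleucine conjugate glues JAZ proteins to the F-box receptor COI1, and they are ubiquitinated and degraded. Many JAZ genes are themselves MYC targets, so jasmonate responses raise the transcripts of their own repressors. Transcript levels do not report on protein levels, which degradation sets.

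The promoters of 3 members are shown because these genes had wide called changes between groups: JAZ6 with mannitol, JAZ7 and JAZ9 with warmth. Each run holds the 250 bases before the annotated gene start, 5′ to 3′ on the gene's own strand, from the RefSeq TAIR10.1 assembly. Capitals mark any of 5 short motifs, read on either strand: the G-box CACGTG, bound by MYC and PIF factors, the related E-box CACATG, the abscisic acid response core ACGTG, the W-box core TTGAC of WRKY factors, and the clock-related AATATCT.
JAZ6 promoter, chr1:27276563-27276812, reverse strand: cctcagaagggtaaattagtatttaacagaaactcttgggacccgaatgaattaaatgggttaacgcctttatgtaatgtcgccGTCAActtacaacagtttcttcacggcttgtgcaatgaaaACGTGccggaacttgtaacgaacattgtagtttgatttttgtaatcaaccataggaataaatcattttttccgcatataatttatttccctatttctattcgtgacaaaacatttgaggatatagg
JAZ7 promoter, chr2:14572780-14573029, forward strand: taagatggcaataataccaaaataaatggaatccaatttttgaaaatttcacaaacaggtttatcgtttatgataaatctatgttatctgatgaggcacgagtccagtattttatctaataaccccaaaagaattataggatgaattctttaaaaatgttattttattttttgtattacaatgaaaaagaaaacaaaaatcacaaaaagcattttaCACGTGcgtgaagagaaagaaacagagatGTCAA
JAZ9 promoter, chr1:26654279-26654528, forward strand: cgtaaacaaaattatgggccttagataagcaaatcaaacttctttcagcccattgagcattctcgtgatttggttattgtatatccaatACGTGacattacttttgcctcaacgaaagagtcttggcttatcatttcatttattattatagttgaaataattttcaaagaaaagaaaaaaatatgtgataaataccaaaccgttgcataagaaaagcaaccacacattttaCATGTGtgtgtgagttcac
JAZ6 held the W-box core at position -166, read there as GTCAA, the core ACGTG at -126, and no G-box. JAZ7 held a G-box at -34 and also the W-box core, read as GTCAA, at -5. JAZ9 held no G-box but the E-box letters, read as CATGTG, at -19, and ACGTG at -161.

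Over 9 members, in windows that run 50 bases past the gene start, 4 held a G-box, against 7.68% of 27443 promoters of protein-coding genes. These were JAZ2, JAZ3, JAZ7 and JAZ8. The core ACGTG, which every G-box also contains, occurred in 8 of the 9, all but JAZ10, against 26.7% of promoters. The W-box core occurred in 4 members and in 50.5% of promoters, and CACATG in 2 members and 12.9%. AATATCT was found in JAZ10 and JAZ12, and in 11.5% of promoters. A match is a description of letters and not a measured binding site.

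**Figure D1:**
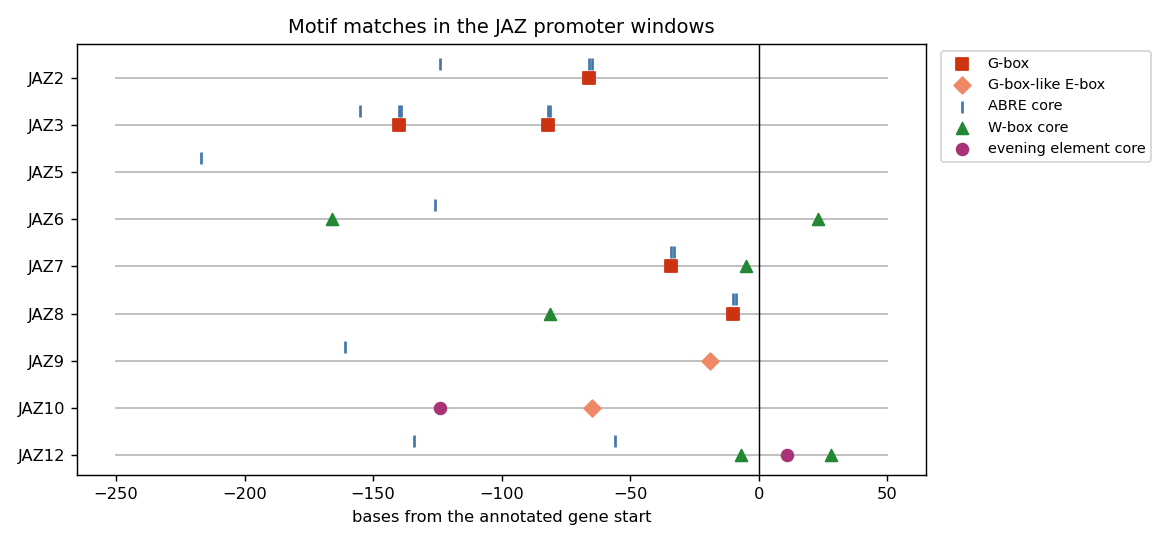
Positions of the 5 motifs, read on either strand, in the promoter windows of 9 JAZ genes; the horizontal axis is bases from the annotated gene start. JAZ3 carries a pair of G-boxes, at -140 and -82, and the G-boxes of JAZ7 and JAZ8 lie nearest the start, at -34 and -10.

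The group means of the 10 transcripts together lay between 151 and 171 TPM, while the shares of single members differed more. The sum was 151 ± 0.0766 TPM at 21°C, 165 ± 1.83 with mannitol at 21°C, 164 ± 9.21 at 27°C and 171 ± 9.24 with mannitol at 27°C. The small SD at 21°C comes from 3 libraries in which single members varied more, JAZ2 with an SD of 2.37 TPM. That SD does not measure how exactly the sum is known. JAZ12, whose protein is known to be bound by the ubiquitin ligase KEG, was the most abundant member in every group. It held 40.8% of the summed TPM at 21°C, 34.6% with mannitol at 21°C, 44.9% at 27°C and 39.5% with both. JAZ2 was the next most abundant in 3 groups, at 18.9% of the sum at 21°C, and was below JAZ9 at 27°C alone.

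**Figure D2:**
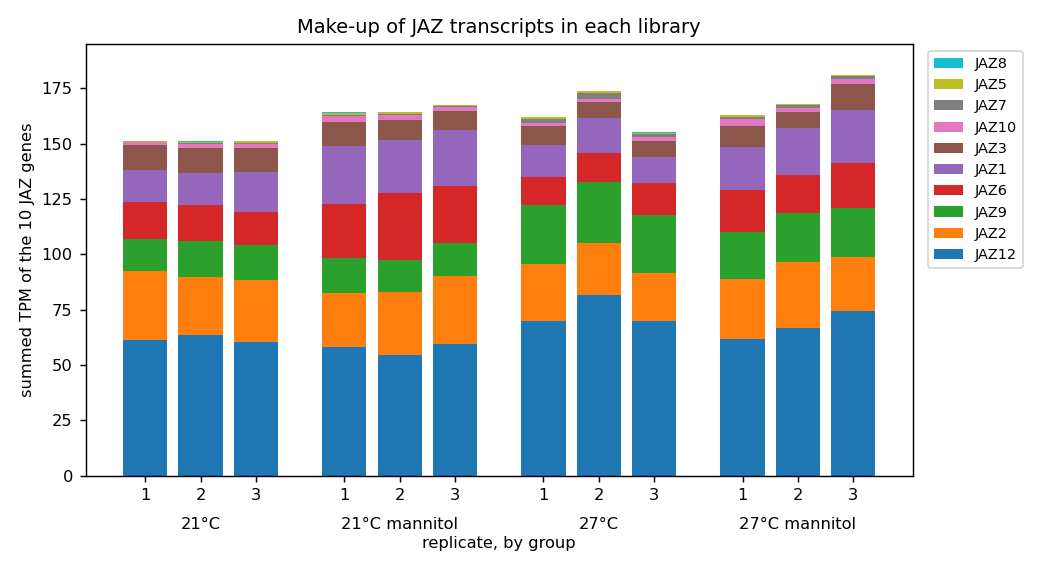
Summed TPM of the 10 JAZ genes in each of the 12 libraries, stacked by gene. The totals lie between 151 and 181 TPM, while the JAZ9 band is widest at 27°C and the JAZ1 and JAZ6 bands are widest with mannitol at 21°C.

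The order below JAZ12 and JAZ2 changed between groups. At 21°C, JAZ6, JAZ1 and JAZ9 followed with libraries that overlapped from each gene to the next, at 16.1, 15.6 and 15.4 TPM. With mannitol at 21°C, JAZ2, JAZ6 and JAZ1 overlapped in turn, and JAZ9 lay below all of their libraries. At 27°C, JAZ9 lay above JAZ2 without overlap, and JAZ1 and JAZ6 overlapped below them. With both treatments, JAZ2 led JAZ9, JAZ1 and JAZ6, of which neighbours overlapped. JAZ3 came next in every group, and JAZ5, JAZ7, JAZ8 and JAZ10 stayed below 3 TPM in all 12 libraries.

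Mannitol at 21°C was accompanied by higher transcripts of JAZ1 and JAZ6. Of 8 members tested, 2 rose and 0 fell, against 20.0% of all tested genes called, 15.4% higher and 4.61% lower. In 3 of the 10 members every mannitol library lay above every control library and in 1 every one lay below, against 28.0% and 11.2% of all tested genes, 39.2% together. The median over the 10 members was 0.02, and over all tested genes 0.08. Here and below, the 10 members include JAZ5 and JAZ8, which lay too low to be tested, while the background holds tested genes only.

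JAZ1, whose degron was the one crystallised with COI1, stood at 14.1, 14.5 and 18.2 TPM at 21°C and at 26.1, 24.1 and 25.1 TPM with mannitol. All mannitol libraries lay above all control libraries. The log2 difference was 0.66 ± 0.12 (adjusted p = 0.00107), and the TPM ratio was 1.61. After rescaling the difference was 0.56 (adjusted p = 0.00388).

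JAZ6, the paralog of JAZ5, stood at 17.1, 16.4 and 14.9 TPM at 21°C and at 24.5, 30.4 and 25.7 TPM with mannitol. Again the groups did not overlap. It rose by 0.70 ± 0.10 (adjusted p = 1.48e-04), a TPM ratio of 1.67. These were 756 reads over the controls and 1229 over the mannitol libraries.

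JAZ10, a strongly jasmonate-inducible member widely used as a reporter of the response, had few reads. It was measured at 1.52, 1.83 and 1.87 TPM at 21°C and at 2.78, 2.59 and 2.05 TPM with mannitol, from 72 and 100 reads. The mannitol libraries all lay above the controls, but the difference of 0.34 ± 0.17 did not pass (95% interval -0.01 to 0.69, adjusted p = 0.175). JAZ10 shares 71 of its 2292 bases with a long noncoding RNA, AT5G02045, on the opposite strand, and no strand is stated for the library kit.

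The other members tested gave no call with mannitol at 21°C. JAZ2 differed by -0.04 ± 0.11 (adjusted p = 0.856) and JAZ9 by -0.02 ± 0.08 (adjusted p = 0.882). JAZ3 differed by -0.21 ± 0.14 (adjusted p = 0.354), and JAZ7 by 0.16 ± 0.21 (adjusted p = 0.673). JAZ12 differed by -0.11 ± 0.08 (adjusted p = 0.411), although its mannitol libraries all lay below the controls.

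**Figure D3:**
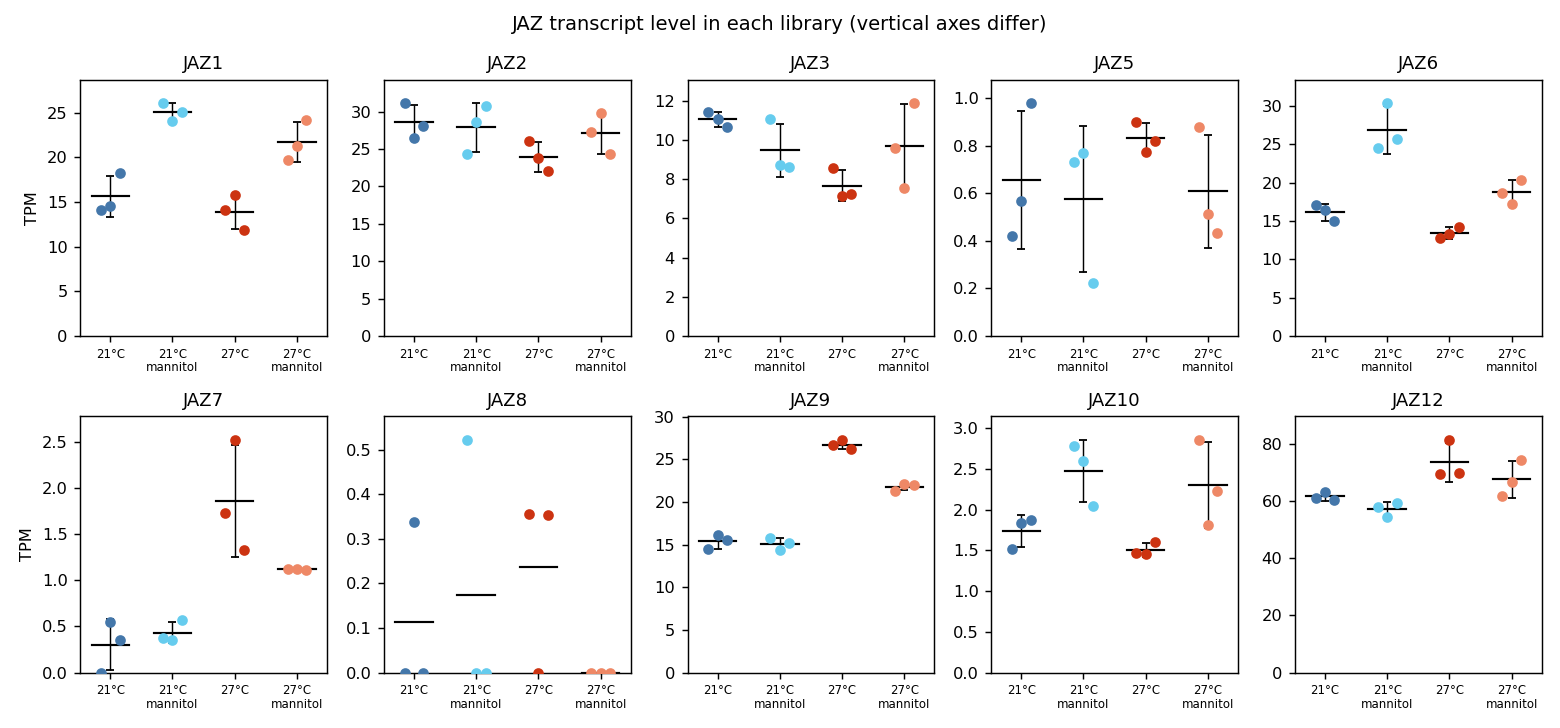
TPM of each JAZ gene in each library; points are libraries, horizontal bars are means of 3 libraries and whiskers are 1 SD, which is left out for JAZ8. JAZ1 and JAZ6 are higher in both mannitol groups, JAZ9 and JAZ7 are higher in both 27°C groups, and the vertical axes differ between genes.

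At 27°C, mannitol was again accompanied by higher JAZ1 and JAZ6 and, in addition, by lower JAZ9. Here 2 of the 8 tested members rose and 1 fell, against 34.5% of all tested genes called, 27.7% higher and 6.80% lower. The libraries did not overlap, upward in 3 and downward in 2 of the 10 members, against 36.9% and 9.21% of all tested genes, 46.2% together. The median was 0.03 over the 10 members and 0.17 over all tested genes.

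JAZ1 stood at 14.1, 15.8 and 11.9 TPM at 27°C and at 19.7, 21.3 and 24.1 TPM with mannitol, with no overlap. It rose by 0.61 ± 0.12 (adjusted p = 0.00134), and by 0.42 after rescaling (adjusted p = 0.0168). The TPM ratio was 1.56, against 1.61 at 21°C. The effect at 27°C less the effect at 21°C was -0.05 ± 0.17 (adjusted p = 0.898).

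JAZ6 stood at 12.7, 13.3 and 14.2 TPM at 27°C and at 18.6, 17.2 and 20.4 TPM with mannitol. It rose by 0.45 ± 0.10 (adjusted p = 0.00349). Rescaling ended this call, at 0.26 (adjusted p = 0.0728). For JAZ6 the effect at 27°C less the effect at 21°C was -0.25 ± 0.14 (adjusted p = 0.358).

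JAZ9, which binds MYC factors and is also known to bind the DELLA growth repressor RGA, stood at 26.7, 27.3 and 26.2 TPM at 27°C and at 21.3, 22.1 and 22.0 TPM with mannitol. The groups did not overlap. It fell by 0.28 on the log2 scale (SE 0.08, adjusted p = 0.0131), to 0.816 of the level without mannitol. For JAZ9 the effect at 27°C less the effect at 21°C was -0.26 ± 0.11 (adjusted p = 0.217).

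JAZ10 stood at 1.47, 1.45 and 1.61 TPM at 27°C and at 2.86, 1.81 and 2.23 TPM with mannitol, without overlap. The difference of 0.38 ± 0.17 did not pass (95% interval 0.03 to 0.74, adjusted p = 0.0852), and it passed when the fit had no mean-variance trend (adjusted p = 0.0301). JAZ7 gave -0.41 ± 0.21 (adjusted p = 0.146), and all of its mannitol libraries lay below those at 27°C.

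JAZ12 differed by -0.12 ± 0.08 (adjusted p = 0.255) and, after rescaling, by -0.31 (adjusted p = 0.0137). JAZ2 differed by 0.17 ± 0.11 (adjusted p = 0.219) and, after rescaling, by -0.02. JAZ3 differed by 0.29 ± 0.14 (adjusted p = 0.139), and this became a call at 0.44 without replicate 2 of warmth with mannitol (adjusted p = 0.0376).

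Transcripts that handling and wounding can raise also were called with mannitol. Of 9 tested touch and wound genes, 7 rose and 0 fell with mannitol at 21°C, and 4 rose and 1 fell at 27°C, or 3 and 1 there after rescaling. Of all tested genes, 20.0% and 34.5% were called in these comparisons. Their summed level over 10 genes was 63.4 to 69.0 TPM at 21°C, 122 to 130 with mannitol, 101 to 123 at 27°C and 122 to 137 with both. ERF5 rose most, by 1.83 ± 0.16 at 21°C (adjusted p = 8.02e-07) and 1.54 ± 0.16 at 27°C (adjusted p = 4.04e-06). TCH3, a calmodulin-like protein, rose by 1.05 ± 0.15 at 21°C (adjusted p = 1.08e-04) and by 0.85 ± 0.15 at 27°C (adjusted p = 5.00e-04). Of its 2664 bases, 827 lie opposite AT2G41105. TCH4 rose by 0.65 ± 0.10 at 21°C (adjusted p = 3.70e-04) but fell by 0.73 at 27°C (SE 0.10, adjusted p = 9.91e-05). TCH2 rose by 0.52 ± 0.09 at 21°C (adjusted p = 5.72e-04) and gave -0.03 ± 0.09 at 27°C (adjusted p = 0.823). In these libraries a rise with handling and a rise with mannitol itself cannot be told apart. The part of the touch and wound genes in the rise of JAZ1 and JAZ6 was not tested.

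Warmth alone was accompanied by higher JAZ9, JAZ7 and JAZ12 and lower JAZ3. Of the 8 members tested, 3 rose and 1 fell, and 44.8% of all tested genes were called in this comparison, 28.2% higher and 16.6% lower. The share of members called, 4 of 8, is near that background, and it includes JAZ7, which was tested because its level at 27°C passed the filter on low values. The libraries did not overlap, upward in 3 and downward in 3 of the 10 members, against 30.8% and 18.8% of all tested genes, 49.6% together. The median was 0.01 over the 10 members and 0.09 over all tested genes.

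JAZ9 stood at 14.5, 16.2 and 15.5 TPM at 21°C and at 26.7, 27.3 and 26.2 TPM at 27°C. The warm libraries lay well above the controls and close to one another. JAZ9 rose by 0.76 ± 0.08 (adjusted p = 2.85e-06), a TPM ratio of 1.74 from 785 and 1312 reads.

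JAZ7, whose product binds TPL directly through a repression motif of the EAR type, is a low transcript that passed the filter through the 27°C groups only, so that its place among the tested members depends on its level there. It was listed at 0, 0.545 and 0.357 TPM at 21°C and at 1.72, 2.52 and 1.33 TPM at 27°C. No libraries overlapped. The difference was 1.14 ± 0.21 (adjusted p = 5.24e-04), with a TPM ratio of 6.18 that rests on 5 and 30 reads. With every gene above 0 tested and no filter, the adjusted p was 2.39e-04. That fit rests on the same reads and is not separate support.

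JAZ12 stood at 61.1, 63.3 and 60.4 TPM at 21°C and at 69.6, 81.4 and 69.6 TPM at 27°C. It rose by 0.25 ± 0.08 (adjusted p = 0.021), a TPM ratio of 1.19. The call ended after rescaling, at 0.16 (adjusted p = 0.161), and with voom on recovered reads, at 0.21 (adjusted p = 0.0684). It also ended without replicate 1 or 3 at 21°C (adjusted p = 0.0509 and adjusted p = 0.0589) or without replicate 2 at 27°C (adjusted p = 0.0705). JAZ12 shares 211 of its 1836 bases with the long noncoding RNA AT5G03235 and 28 with AIP2, both on the opposite strand.

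JAZ3, the gene in which the dominant jai3 insensitivity mutation lies, stood at 11.4, 11.1 and 10.7 TPM at 21°C and at 8.58, 7.17 and 7.25 TPM at 27°C. It fell by 0.48 (SE 0.14, adjusted p = 0.0141), and the groups did not overlap.

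JAZ2 and JAZ6 lay lower in every 27°C library than in any 21°C library, without a call. JAZ2, known for a role in guard cells, stood at 31.2, 26.5 and 28.1 TPM at 21°C and at 26.0, 23.8 and 22.0 TPM at 27°C, a difference of -0.25 ± 0.11 (adjusted p = 0.0708). JAZ6 differed by -0.25 ± 0.10 (adjusted p = 0.0588). Rescaling made both calls, at -0.34 for JAZ2 (adjusted p = 0.0179) and -0.34 for JAZ6 (adjusted p = 0.0154), and so did voom, at -0.29 (adjusted p = 0.0369) and -0.30 (adjusted p = 0.0438). JAZ2 also passed without replicate 1 at 27°C (adjusted p = 0.0407). JAZ6 also passed without replicate 3 at 21°C (adjusted p = 0.0483) or without replicate 2 of mannitol at 21°C (adjusted p = 0.0466). JAZ1 gave -0.15 ± 0.12 (adjusted p = 0.315) and JAZ10 gave -0.13 ± 0.17 (adjusted p = 0.569).

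Of the 9 touch and wound genes, 4 were higher and 0 lower here, or 3 and 0 after rescaling, a share near the 44.8% of all tested genes. TCH4, a cell wall xyloglucan enzyme, differed by 1.45 ± 0.10 (adjusted p = 8.24e-08). TCH2 and TCH3 gave 0.02 ± 0.09 (adjusted p = 0.842) and -0.09 ± 0.15 (adjusted p = 0.654). Their part in the changes of JAZ7 and JAZ9 was not tested.

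**Figure D4:**
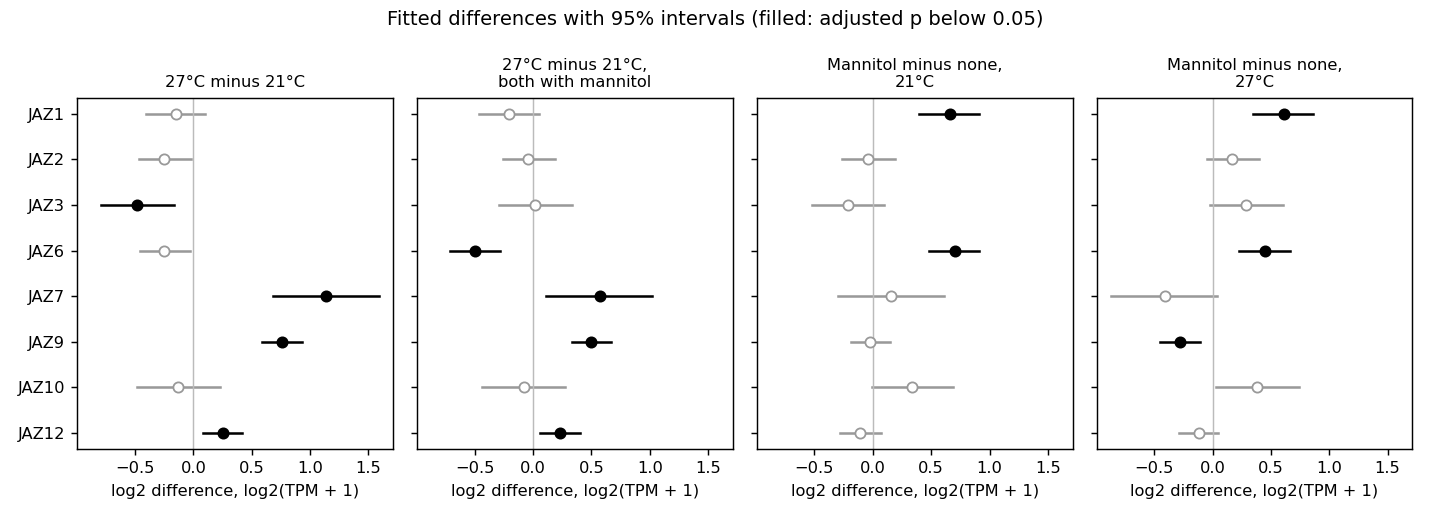
Log2 differences of TPM + 1 for the 8 JAZ genes tested, with 95% intervals from limma; filled points have an adjusted p below 0.05. JAZ9 lies right of 0 in both warm comparisons, at 0.76 and 0.50, and JAZ1 and JAZ6 lie right of 0 in both mannitol comparisons.

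Warmth in the presence of mannitol gave 3 higher members, JAZ9, JAZ7 and JAZ12, and 1 lower, JAZ6, of 8 tested. In this comparison 54.0% of all tested genes were called, 37.5% higher and 16.5% lower, so that the share of members called, again 4 of 8 with JAZ7 among them, is near the background. The libraries did not overlap, upward in 3 and downward in 1 of the 10 members, against 44.7% and 20.9% of all tested genes, 65.7% together. The medians were -0.01 over the 10 members and 0.16 over all tested genes. The warm comparisons with and without mannitol share no library, but each shares libraries with both mannitol comparisons.

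JAZ9 stood at 15.8, 14.4 and 15.2 TPM with mannitol at 21°C against 21.3, 22.1 and 22.0 TPM with mannitol at 27°C. It rose by 0.50 ± 0.08 (adjusted p = 1.03e-04), a TPM ratio of 1.44, and by 0.33 after rescaling (adjusted p = 0.00316).

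JAZ6 fell by 0.50 (SE 0.10, adjusted p = 8.36e-04), to 0.697 of its level with mannitol at 21°C. Its libraries with mannitol at 21°C, at 24.5, 30.4 and 25.7 TPM, all lay above those with mannitol at 27°C. After rescaling the difference was -0.67 (adjusted p = 9.31e-05).

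JAZ7 stood at 0.374, 0.358 and 0.565 TPM with mannitol at 21°C and at 1.12, 1.12 and 1.11 TPM with mannitol at 27°C, from 7 and 18 reads. The difference was 0.57 ± 0.21 (adjusted p = 0.0355), again in a gene that the 27°C groups brought past the filter, and no libraries overlapped. With no filter, on the same reads, the adjusted p was 0.0169. The call was lost after rescaling (adjusted p = 0.0869), with a pseudocount of 0.1 (adjusted p = 0.0979) and with voom (adjusted p = 0.135). It was also lost without replicate 1 or 2 of mannitol at 21°C (adjusted p = 0.0857 and adjusted p = 0.0888), or without replicate 1, 2 or 3 of mannitol at 27°C (adjusted p between 0.0731 and 0.0761).

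JAZ12 stood at 58.1, 54.3 and 59.3 TPM with mannitol at 21°C and at 61.6, 66.6 and 74.4 TPM with mannitol at 27°C. It rose by 0.23 ± 0.08 (adjusted p = 0.0245). After rescaling it differed by 0.05 (adjusted p = 0.646) and with voom by 0.15 (adjusted p = 0.196). The call also ended without replicate 2 of mannitol at 21°C (adjusted p = 0.0929), or without replicate 2 or 3 of mannitol at 27°C (adjusted p = 0.0516 and adjusted p = 0.131).

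JAZ1 differed by -0.21 ± 0.12 (adjusted p = 0.16). It passed after rescaling, at -0.38 (adjusted p = 0.0167), and with voom, at -0.30 (adjusted p = 0.0384). JAZ2, JAZ3 and JAZ10 differed by -0.04 ± 0.11, 0.02 ± 0.14 and -0.08 ± 0.17 (adjusted p = 0.786, adjusted p = 0.932 and adjusted p = 0.699).

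Whether warmth changed the mannitol response was tested by the interaction, which subtracts the mannitol effect at 21°C from the effect at 27°C. None of the 8 members tested was called by limma, against 5.12% of all tested genes, 2.43% higher and 2.69% lower, and voom and every other setting tried also gave 0. At an unadjusted p below 0.05 there were 2, JAZ9 and JAZ3. For JAZ3 the difference was 0.50 ± 0.20 (adjusted p = 0.195). JAZ7 gave -0.57 ± 0.30 (adjusted p = 0.315), JAZ2 0.21 ± 0.15 (adjusted p = 0.466), JAZ10 0.04 ± 0.23 (adjusted p = 0.939) and JAZ12 -0.02 ± 0.11 (adjusted p = 0.954). With 3 libraries in each group the standard errors of these differences ran from 0.11 to 0.30, and a p that misses the threshold does not show that the responses were alike.

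JAZ5 and JAZ8 lay too low to be tested. JAZ5 was at 0.421, 0.569 and 0.979 TPM at 21°C, 0.732, 0.771 and 0.221 with mannitol, 0.900, 0.775 and 0.819 at 27°C, and 0.877, 0.513 and 0.434 with both. Libraries with mannitol at 21°C all lay below those at 27°C without it, while every other pair of groups overlapped, and each group held 24 to 34 reads. JAZ8, which lacks the canonical degron and is thereby known to resist jasmonate-driven turnover, had 2 reads at 21°C, 3 with mannitol, 4 at 27°C and 0 with both. The 0 reads allow up to 3, a mean of 0.174 TPM, which covers counting error only. Fitted without the filter, neither gene was called in any comparison, with adjusted p from 0.242 to 0.883.

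Ratios of close relatives within a library do not depend on scaling between libraries, and were chosen after the values were seen; they carry no test. The JAZ1 to JAZ2 ratio, for paralogs also named TIFY10A and TIFY10B, was 0.452 to 0.649 at 21°C and 0.539 to 0.665 at 27°C. With mannitol it was 0.816 to 1.07 at 21°C and 0.714 to 0.994 at 27°C, above every library without mannitol. The JAZ9 to JAZ3 ratio was 1.26 to 1.46 at 21°C and 3.11 to 3.81 at 27°C. With mannitol the same ratio was 1.43 to 1.75 at 21°C and 1.85 to 2.93 at 27°C, so the warm groups lay apart from their controls in both settings. Ratios of other pairs were also taken. JAZ6 to JAZ2 was 0.532 to 0.617 at 21°C and 0.837 to 1.06 there with mannitol. At 27°C it was 0.489 to 0.645, overlapping 0.577 to 0.838 with mannitol. JAZ9 to JAZ12 was 0.237 to 0.257 at 21°C and 0.335 to 0.383 at 27°C. With mannitol JAZ9 to JAZ12 was 0.256 to 0.273 at 21°C and 0.295 to 0.346 at 27°C. The sources used here do not say how reads shared between paralogs were counted.

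The members with the widest range of group means were JAZ7, at 1.14 on the log2 scale, JAZ6 at 0.95 and JAZ1 at 0.81. JAZ9 followed at 0.78, and JAZ2 and JAZ5 had the narrowest ranges, 0.25 and 0.24. For the first 3, the tested genes outside the set with the most similar profile were found by the root mean square difference of centred log2 values over the 12 libraries. The nearest to JAZ7 was AOX1C, an alternative oxidase, at 0.173, followed by the metacaspase MC9 at 0.177 and the aquaporin PIP2A at 0.179. JAZ7 had 5 reads at 21°C, 7 with mannitol, 30 at 27°C and 18 with both, so its range and neighbours rest on few reads. AOX1C was low too, with group means from 0.434 to 1.59 TPM. These distances lie close together, and their order carries no test. The nearest to JAZ6 was AT2G32430 at 0.10, followed by LP1, a lipid transfer protein, at 0.113 and IGMT4, an indole glucosinolate methyltransferase, at 0.116. The nearest to JAZ1 was AT1G03230 at 0.093, followed by NUDT7, a nudix hydrolase, at 0.095 and AT3G28950 at 0.107. AT1G03230 averaged 88.5 TPM at 21°C, 136 with mannitol, 77.0 at 27°C and 119 with both.

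Of the other JAZ genes, JAZ4 averaged 3.37 TPM at 21°C, 3.98 with mannitol, 2.38 at 27°C and 2.89 with both, and JAZ11 stayed between 10.7 and 12.1 TPM in the group means. Of 5 relatives tested, limma called 0 with mannitol at 21°C and 0 at 27°C, with 0 and 1 at an unadjusted p below 0.05 and 0 by voom. Of all tested genes, 20.0% and 34.5% were called in these comparisons. With warmth 1 rose and 1 fell, or 1 and 2 after rescaling, against 44.8% of all tested genes. PPD2, a TIFY protein that limits leaf growth, rose by 0.65 ± 0.10 (adjusted p = 1.39e-04), and TIFY8, which shares 428 of its 2636 bases with AT4G32560 on the opposite strand, fell by 0.25 (SE 0.08, adjusted p = 0.0196).

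Among 15 tested genes of perception and of the JAZ partners, 5 rose and 1 fell with warmth, 9 rose and 0 fell with mannitol at 27°C, and 9 rose and 1 fell with warmth in mannitol. Of all tested genes, 44.8%, 34.5% and 54.0% were called in these comparisons. With mannitol at 21°C limma called 0, against 20.0% of all tested genes, with 2 at an unadjusted p below 0.05, and voom called 0. After rescaling the other counts were 1 and 2, 3 and 1, and 5 and 2. COI1 rose by 0.41 ± 0.10 with warmth (adjusted p = 0.00418). MYC3 and MYC4, partners that JAZ proteins repress, rose with mannitol at 27°C by 0.62 ± 0.08 (adjusted p = 2.20e-05) and 0.66 ± 0.12 (adjusted p = 6.43e-04). NINJA averaged 69.6 TPM at 21°C, 69.2 with mannitol, 69.5 at 27°C and 72.4 with both. MYC2 was listed at 0 in all 12 libraries; it shares 3241 of its 3289 bases with AT1G32630 on the opposite strand, and its transcript was not analysed here.

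Genes that make jasmonate were called in both directions, and genes that remove it only upward before rescaling. Genes that answer to it were called in both directions with warmth and only upward with mannitol. Of all tested genes, 44.8% were called with warmth, 20.0% with mannitol at 21°C and 34.5% with mannitol at 27°C. Of 14 synthesis genes tested, 7 rose and 2 fell with warmth, 6 rose and 2 fell with mannitol at 21°C, and 8 rose and 4 fell with mannitol at 27°C; rescaled, the counts were 3 and 2, 3 and 3, and 6 and 5. LOX3, a lipoxygenase at the entry to the pathway, rose with warmth by 1.14 ± 0.13 (adjusted p = 6.98e-06), while the allene oxide cyclase AOC2 fell by 0.53 (SE 0.11, adjusted p = 8.26e-04). Of 8 turnover genes, 5 rose and 0 fell with warmth, 3 and 0 with mannitol at 21°C, and 4 and 0 with mannitol at 27°C; rescaled, 5 and 0, 3 and 0, and 2 and 2. ST2A, which sulfates hydroxylated jasmonate, rose from 3.83 ± 0.337 to 15.1 ± 2.18 TPM with warmth, by 1.73 ± 0.17 (adjusted p = 1.44e-06). CYP94B3, which oxidises the active conjugate, rose with mannitol by 0.95 ± 0.22 at 21°C (adjusted p = 0.00556) and 1.27 ± 0.22 at 27°C (adjusted p = 4.43e-04).

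Of 6 output genes tested, 2 rose and 2 fell with warmth, 3 rose and 0 fell with mannitol at 21°C, and 4 rose and 0 fell with mannitol at 27°C, the last count being 3 and 0 after rescaling. ORA59, an ethylene response factor of the defence branch, rose with mannitol by 1.24 ± 0.18 at 21°C (adjusted p = 1.58e-04) and by 1.03 ± 0.18 at 27°C (adjusted p = 5.62e-04). With warmth ORA59 fell by 0.83 (SE 0.18, adjusted p = 0.0017). VSP1, a vegetative storage protein of the MYC branch, rose with warmth by 1.34 ± 0.13 (adjusted p = 2.02e-06). Its paralog VSP2 differed by 0.07 ± 0.28 (adjusted p = 0.866), and CORI3, a coronatine-induced cystine lyase, fell with warmth by 1.11 (SE 0.17, adjusted p = 7.49e-05).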

How the data were processed

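RNA of 12 seedling libraries was measured. The authors deposited 1 table of TPM values; its column names call them counts, but each column sums to 1000000. The submitters' processing notes name fastp 0.20.1, HISAT2, DESeq2 1.26.0 and TAIR10, without role or order; the sources used here do not give the counter, gene lengths or handling of shared reads. Whole reads were recovered, within 0.01, for 21760 of 21760 genes above 0 in at least 6 libraries.

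Genes with at least 1 TPM in at least 3 libraries were tested (20005; 7650 left out) with limma 3.58.1 in R 4.3.3 on log2(TPM + 1), fitting a mean per group for 4 groups without covariates, with trended empirical Bayes, two-sided tests and Benjamini-Hochberg adjustment over all tested genes of each of the contrasts. The script was tested on simulated data. Alternatives were a pseudocount of 0.1, no filter, median-of-ratios rescaling, a replicate block, no trend, leaving out each library, and voom on recovered reads, the last chosen after seeing the data. Promoters of 9 members came from TAIR10.1, and that of the other member is not reported here; the deposited table holds no coordinates. The members and gene lists were chosen with earlier results of these data known. All 10 members are named. Of the jasmonate and of the touch and wound lists, only some genes are named, with and without a call. They are not always those with the largest differences.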

Additional observations from a re-analysis of the deposited data

Results flagged for a closer look

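By the interaction in limma, 0 of 8 tested JAZ members were called for a difference between their mannitol responses at the 2 temperatures. Of 5 tested JAZ relatives 0 were called, and of 43 tested genes of the wider jasmonate pathway 4 were. Of all tested genes, 5.12% were called. With so few genes tested, these counts do not show that the JAZ genes differ from the rest of the pathway. The values are the log2 effect of mannitol at 27°C less its effect at 21°C. MYC3, a JAZ-repressed transcription factor, gave 0.45 (adjusted p = 0.024). It averaged 62.4 and 70.2 TPM without and with mannitol at 21°C, and 72.0 and 111 TPM at 27°C. JAM2, a bHLH factor that opposes MYC, gave 0.46 (adjusted p = 0.0412). AOC2, the allene oxide cyclase, gave -0.66 (adjusted p = 0.0177), from 120 and 94.1 TPM at 21°C and 82.4 and 40.7 TPM at 27°C. JR1, a jasmonate-responsive lectin gene with 631 of its 3943 bases opposite JAL34, gave 0.42 (adjusted p = 0.0342).

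Rescaling ended the call of MYC3 (adjusted p = 0.0564), JAM2 (adjusted p = 0.0862) and JR1 (adjusted p = 0.0972). Voom ended it for JAM2 (adjusted p = 0.0605) and JR1 (adjusted p = 0.0612), a replicate block for JAM2 (adjusted p = 0.0655), and a fit with no trend for MYC3 (adjusted p = 0.0627), AOC2 (adjusted p = 0.053) and JR1 (adjusted p = 0.0818). Leaving out 1 library in turn ended the call of AOC2 without replicate 2 of mannitol at 21°C (adjusted p = 0.052) or replicate 3 of mannitol at 27°C (adjusted p = 0.0526). MYC3 lost its call in the same way without replicate 1 at 21°C (adjusted p = 0.0556), replicate 1 of mannitol at 21°C (adjusted p = 0.07) or any of the 3 libraries of mannitol at 27°C (adjusted p between 0.0516 and 0.0603). The calls of JAM2 and JR1 were each lost in most of the fits that left out 1 library, at values from 0.37 to 0.50. In the fits that lost the call, the adjusted p lay between 0.0595 and 0.115 for JAM2. For JR1 the adjusted p lay between 0.0538 and 0.0951 in such fits. The cause was not tested.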

How the results depend on the processing

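Over 720 refits of single members, 666 kept direction and side of the threshold, 19 lost a call, 12 gained one and 23 changed sign; every sign change was in a difference without a call. The calls of JAZ3, JAZ7 and JAZ9 with warmth and of JAZ1 and JAZ6 with mannitol at 21°C held in every refit. So did those of JAZ1 and JAZ9 with mannitol at 27°C and of JAZ6 and JAZ9 with warmth in mannitol. For JAZ7 the refits draw on the same 5 and 30 reads, in a gene tested through its level at 27°C. The lost and gained calls are given in the report. Rescaling changed the sign of JAZ2 with mannitol at 27°C to -0.02, of JAZ3 with warmth in mannitol to -0.15, and of JAZ10 in the interaction to -0.02; voom gave -0.07 for JAZ3 with warmth in mannitol. Leaving out 1 library at a time, with mannitol at 21°C JAZ2 ran from -0.11 to 0.06, JAZ7 from -0.02 to 0.29 and JAZ9 from -0.06 to 0.01. With warmth in mannitol JAZ2 ran from -0.13 to 0.04, JAZ3 from -0.13 to 0.17 and JAZ10 from -0.20 to 0.03. In the interaction JAZ1 ran from -0.16 to 0.04, JAZ10 from -0.08 to 0.15 and JAZ12 from -0.09 to 0.06. The number of members called with warmth in mannitol ran from 2 to 4, and was 2 without replicate 2 of mannitol at 21°C or replicate 2 or 3 of mannitol at 27°C. The number of all genes called in the interaction ran from 655 without replicate 3 of mannitol at 21°C to 1765 without replicate 1 at 27°C. The cause was not tested.

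Rescaling turned the split of all called genes from 5636 higher and 3322 lower with warmth to 4398 and 4352, from 3089 and 922 with mannitol at 21°C to 2064 and 1910, from 5544 and 1361 with mannitol at 27°C to 2338 and 2981, from 7496 and 3306 with warmth in mannitol to 4585 and 5074, and from 486 and 538 in the interaction to 312 and 739. The members' counts, higher and lower, became 2 and 3, 2 and 0, 1 and 2, 1 and 2, and 0 and 0, and their median with mannitol at 27°C became -0.14 and with warmth in mannitol -0.18.

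Replicate numbers did not pair the libraries: over 18 pairs with the same number, residuals correlated from -0.076 to 0.128, with 2 over 0.1, and 4 libraries correlated best with their own number. With a replicate block the members called were 4, 2, 3, 4 and 0 in the 5 comparisons, as without it. Depth limits JAZ5, JAZ7, JAZ8 and JAZ10, with at most 100 reads a group.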
